A study of Homo sapiens with 6 samples.

Results

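The nuclear-encoded subunits of oxidative phosphorylation were examined in melanoma tumours with and without knockdown of SHP2. Members were taken by gene symbol from the deposited expression table: the NDUFA, NDUFB, NDUFC, NDUFS and NDUFV genes, the SDH genes, and the genes whose symbols begin with UQCR, COX4I, COX5, COX6, COX7, COX8 or ATP5, without assembly factors named NDUFAF and without pseudogenes. This gave 85 of the 24494 genes of the table that have a row of their own symbol. Of these, 81 belong to complexes by symbol, 38 to complex I, 3 to complex II, 8 to complex III, 17 to complex IV and 15 to complex V. The other 4 are the antisense gene NDUFB2-AS1, the read-through gene NDUFC2-KCTD14, and ATP5S and ATP5SL, which carry an ATP5 symbol but now have other names in RefSeq, DMAC2L and DMAC2. SDHA and ATP5E were not analysed here, and UQCRH was not analysed on a row of its own.

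Oxidative phosphorylation is carried out in the inner mitochondrial membrane. Complexes I and II feed electrons from NADH and succinate into ubiquinone, complexes III and IV pass them through cytochrome c to oxygen, and complex V, the ATP synthase, uses the proton gradient that results. The subunits are encoded partly in the nucleus and partly in mitochondrial DNA, and melanomas are known to differ in how much they rely on respiration or on glycolysis.

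The knockdown group consisted of 3 tumours of 1205Lu cells, a human metastatic melanoma line, carrying a short hairpin RNA against SHP2 (the product of PTPN11), and the control group of 3 tumours of the same line with a non-target short hairpin RNA. Both groups were grown under the skin of immunodeficient NSG mice for roughly 6 weeks, and RNA of whole tumours was hybridised to Affymetrix arrays. The labels give neither the hairpin sequences nor whether each group came from 1 clone or whether each tumour came from its own mouse, so p-values measure the spread between these samples, which may be technical. Values are log2 GCRMA values, in which a difference of 1 is a 2-fold change; differences are knockdown minus control, and GCRMA levels of different genes are not compared with each other.

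PTPN11 was 6.92, 6.34 and 6.88 in knockdown tumours 1 to 3 and 8.47, 8.76 and 9.05 in control tumours 1 to 3, so that the groups did not overlap. It fell to 24.2% of the control level (difference -2.05, SE 0.21, adjusted p = 0.034 in limma). The exact two-sided permutation p was 0.1, the smallest that 3 samples against 3 allow. In limma over the 12541 genes kept by the filter on low values, it was the only gene with a Benjamini-Hochberg adjusted p at or under 0.05, which is 0.00797% of the genes, and the adjusted p lay between 0.096 and 0.267 when any 1 array other than control 1 was left out. A background level was taken as the 95th percentile of each array's negative controls. Among the 12 melanoma markers present in the table, S100B, SOX9, VIM and AXL were above it in all 6 arrays. The pigment cell genes MITF, TYR, DCT, MLANA and PMEL were above it in none. Of the other markers, SOX10 was above it in 3 arrays, and NGFR and S100A1 were above it in 0. S100A1 differed by -0.47 (SE 0.21, unadjusted p = 0.047 in limma). Control 1 stood apart from the other arrays: its gap between the medians of positive and negative control features was 3.64, against 4.11 to 4.47 in knockdown tumours and 4.19 and 4.39 in control tumours 2 and 3. The precision is set by 3 arrays per group. In bulk tumours, fewer cells with a transcript and less of it per cell cannot be told apart.

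Knockdown tumours and control tumours did not differ in any subunit gene by the test. Of the 81 subunit genes, 65 passed the filter of a log2 value above 4 in at least 3 of the 6 arrays. Of these 65, 0 rose and 0 fell at an adjusted p of 0.05 in limma, and 0 reached an unadjusted p under 0.05, against 2.54% of all genes (1.35% with higher and 1.2% with lower values in knockdown tumours). The lowest unadjusted p among them was 0.073. Under each of the 20 other settings tried, 0 members passed after adjustment. Of these settings, the series value table repeats the main values and the threshold of 0.1 reuses the main fit, so neither is a separate check. With 3 arrays per group, the lack of calls does not show that differences of the sizes seen here are absent. The highest count at an unadjusted p under 0.05 was 3 members (4.62%, against 5.81% of all genes), with the sample number as a block. It was 2 members (3.08%) in 5 settings, in which the share of all genes was 2.86% without variance moderation, 3.58% with quantile normalization, 4.35% without knockdown 1, 7.62% without control 3 and 4.69% without both arrays numbered 1. In the other settings it was 0 or 1.

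The intervals bound the difference in array values. For genes near background they need not bound the change in transcript. Of the 65 genes, 12 were above background in 0 arrays and 19 in some, and all are counted here. For 64 of the 65 subunit genes (98.5%) the unadjusted 95% interval of the difference lay within a 2-fold change in either direction, against 96% of all genes. For 41 (63.1%) it lay within a 1.5-fold change, against 58.1% of all genes. The exception at 2-fold was ATP5D, whose interval ran from -0.06 to 1.03.

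Among the 65 genes, 48 differences were positive (73.8%) and 17 negative, beside 62% positive among all genes. The median difference was 0.08 for the subunit genes and 0.05 for all genes. By complex the median was 0.07 for complex I (25 of 33 positive), 0.07 for complex II (2 of 3), 0.13 for complex III (5 of 7), 0.10 for complex IV (8 of 11) and 0.10 for complex V (8 of 11). Without control 1 these medians were -0.0085 for complex I, 0.0126 for complex II, -0.02 for complex III, -0.0859 for complex IV and -0.05 for complex V. These counts and medians are descriptions, since the genes were chosen as a list.

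**Figure D1:**
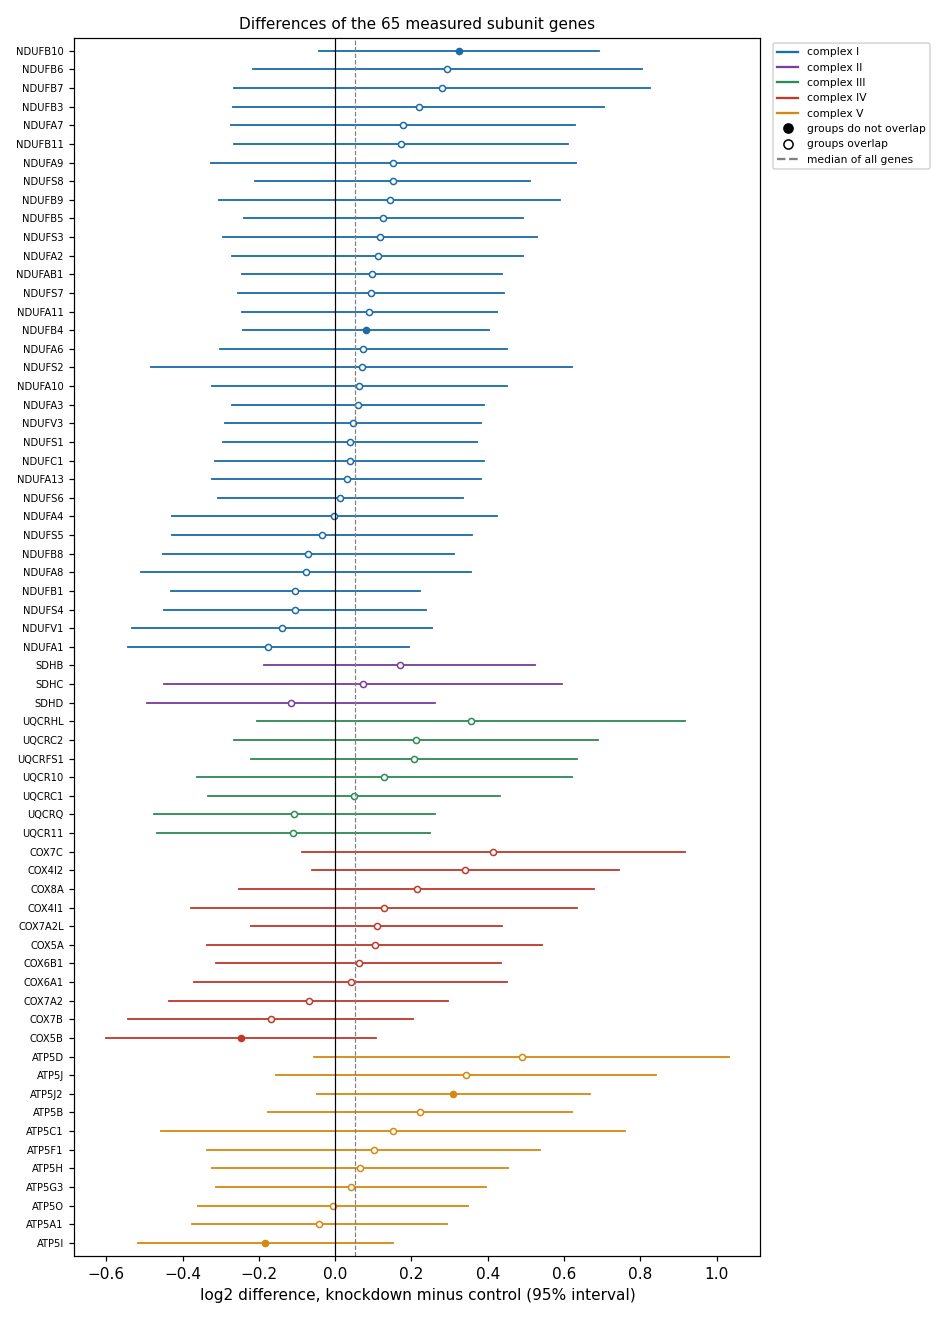
Log2 difference (knockdown minus control) of each of the 65 subunit genes that passed the filter, with its unadjusted 95% interval, grouped by complex. Points lie between -0.25 (COX5B) and 0.49 (ATP5D), every interval crosses 0, and filled points mark the 5 genes whose groups do not overlap.

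The subunit medians differed more between arrays of 1 group than between the groups. The median deviation of the 65 genes from their own means was -0.11, 0.11 and 0.11 in knockdown tumours 1 to 3 and -0.20, 0.02 and 0.10 in control tumours 1 to 3. All genes gave -0.06, 0.10 and 0.05 in knockdown tumours and -0.16, -0.01 and 0.10 in control tumours. Array 1 of each group was thus the low one for both sets. Control 1 held the lowest value of 38 of the 65 subunit genes (58.5%), against 45.8% of all genes, and its median deviation was -0.49 over complex III and -0.29 over complex V.

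Without control 1, 29 of the 65 differences were positive (44.6%), against 46.3% of all genes. The median difference then was -0.02 for the subunit genes and -0.01 for all genes. Without both arrays numbered 1 the medians were 0.05 and 0.03. With any other array left out, the median lay between 0.06 and 0.14 for the subunit genes and between 0.02 and 0.11 for all genes. The part of the low control contrast of control 1 in these values was not tested.

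**Figure D2:**
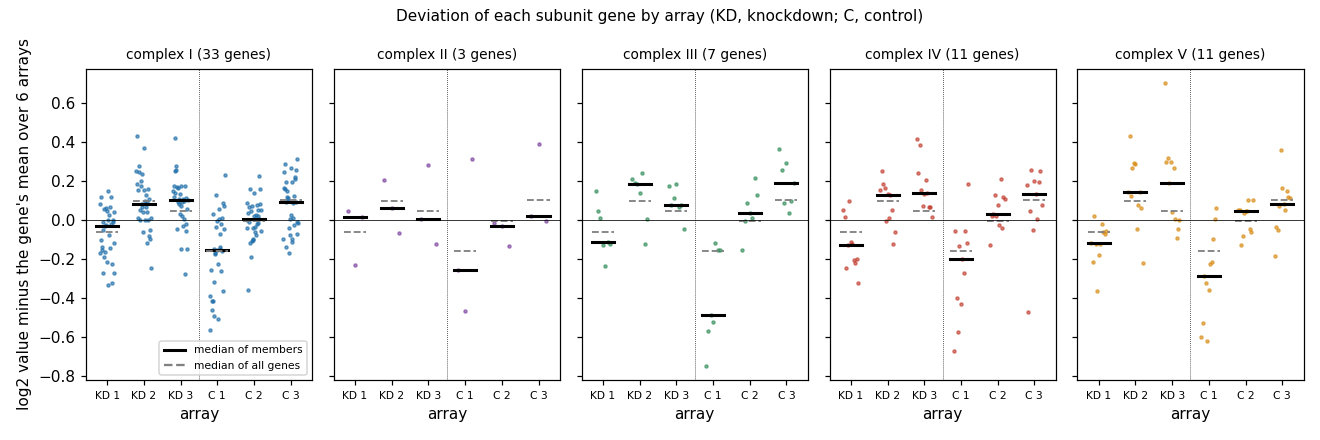
Deviation of each subunit gene from its own mean over 6 arrays (log2, vertical axis) in the 3 knockdown and 3 control arrays, by complex; black bars are medians of the subunit genes and dashed bars medians of all genes. Control 1 is lowest in each complex, with medians from -0.49 (complex III) to -0.16 (complex I).

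The groups did not overlap for 5 subunit genes (7.69%), against 6.67% of all genes. They were NDUFB10, NDUFB4 and ATP5J2 with higher values in knockdown tumours and COX5B and ATP5I with lower values, and each had an adjusted p of 1.0 in limma. Higher non-overlap occurred in 3.86% of all genes and lower in 2.81%.

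**Figure D3:**
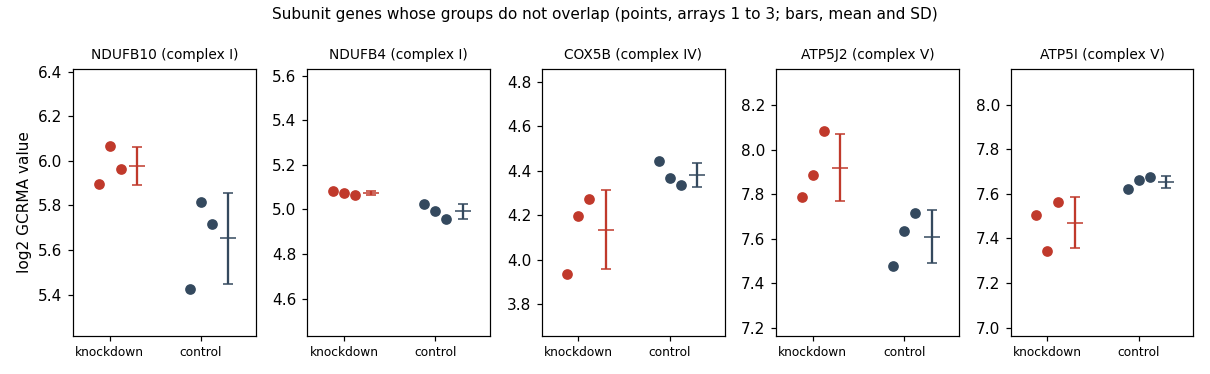
Log2 values of the 5 subunit genes whose groups do not overlap, in arrays 1 to 3 of the knockdown and the control group, with the mean and SD of each group beside the points; every panel spans the same range of log2 units. The gap between group means is widest in NDUFB10 (0.32) and narrowest in NDUFB4 (0.08).

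Complex I, the NADH dehydrogenase, is built from a catalytic core and many accessory subunits. NDUFB10, an accessory subunit of the membrane arm, was 5.90, 6.07 and 5.96 in knockdown tumours and 5.43, 5.82 and 5.72 in control tumours. All 3 knockdown values lay above all 3 control values, with control 1 the lowest. Its difference was 0.32 (SE 0.16, unadjusted p = 0.078), and 0.21 without control 1. NDUFB4, another accessory subunit of that arm, was 5.08, 5.08 and 5.06 in knockdown tumours and 5.03, 4.99 and 4.96 in control tumours. The separation was small (difference 0.08, SE 0.14), and all 6 values lay below the background level, which ran from 5.09 to 5.43 in knockdown arrays and from 5.12 to 5.90 in control arrays.

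No complex I gene had lower values in every knockdown tumour. The negative difference with the smallest p was that of NDUFA1, an accessory subunit of the membrane arm, which was 6.84, 6.71 and 7.06 in knockdown tumours and 7.19, 7.01 and 6.94 in control tumours (difference -0.18, SE 0.16). Its groups overlapped, with knockdown 3 above controls 2 and 3, and leaving out single arrays gave -0.27 to -0.0942.

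The 7 nuclear core subunits of complex I bind NADH, flavin and the iron-sulfur clusters, and 6 of them passed the filter, all but NDUFV2. Their median difference was 0.08, with 5 positive and 1 negative, and that of the 27 accessory genes was 0.07. Without control 1 the medians were -0.0005 and -0.0085. NDUFS1, the large iron-sulfur subunit, was 7.56 ± 0.05 in knockdown and 7.52 ± 0.09 in control tumours (SD, n = 3 each; difference 0.04, 95% interval -0.29 to 0.37, 0.0111 to 0.0937 with single arrays left out). NDUFV1, which binds NADH and flavin, was the core gene with a negative difference, 5.40 ± 0.18 in knockdown and 5.54 ± 0.21 in control tumours (-0.14, SE 0.18, and -0.0182 without control 3). NDUFA9 had 2 rows that disagreed in sign, with a difference of 0.15 on the brighter row that stood for the gene and -0.19 on a row with a mean of 2.82; the brighter row gave -0.0169 without control 1. NDUFS1, NDUFV1 and NDUFA9 were chosen after their values were seen.

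NDUFA4 and NDUFA4L2 carry complex I symbols, but RefSeq now names them COXFA4 and COXFA4L2 as cytochrome c oxidase associated. Both are counted under complex I here, and NDUFA4 is part of its medians. The complex IV counts and medians do not include them. NDUFA4 was 4.05, 4.09 and 3.65 in knockdown tumours and 3.67, 3.98 and 4.14 in control tumours, a difference of -0.0024 (SE 0.19). NDUFA4L2, a gene known to respond to hypoxia, was 3.57, 3.68 and 3.87 in knockdown tumours and 3.93, 3.79 and 3.31 in control tumours and did not pass the filter. The groups overlapped in both, and neither gene was above background in any array.

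Complex II, succinate dehydrogenase, links the citric acid cycle to the chain. SDHB, its iron-sulfur subunit, was 5.32, 5.48 and 5.28 in knockdown tumours and 5.02, 5.26 and 5.30 in control tumours (difference 0.17, SE 0.16). SDHC, a membrane anchor, was 6.64, 6.94 and 7.15 in knockdown tumours and 6.41, 6.84 and 7.26 in control tumours (0.07, SE 0.23). SDHD, the other anchor, was 6.74, 6.65 and 6.60 in knockdown tumours and 7.03, 6.58 and 6.71 in control tumours (-0.12, SE 0.17). The groups overlapped for all 3 genes. SDHB was above background in 3 arrays, and SDHC and SDHD in all 6. In SDHC array 1 was the lowest and array 3 the highest of each group, and without control 1 its difference was -0.14, that of SDHD 0.01 and that of SDHB 0.0824.

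Complex III passes electrons from ubiquinol to cytochrome c. The positive difference with the smallest p was that of UQCRHL, an intronless coding copy of the hinge protein gene UQCRH, which was 6.91, 6.97 and 6.94 in knockdown tumours and 6.01, 6.61 and 7.13 in control tumours. Its control values spanned the knockdown values (difference 0.36, SE 0.25), and the difference was 0.07 without control 1. UQCRHL and UQCRH are near-identical, so this row can read both genes. UQCR11, a small accessory subunit, was 6.56, 6.69 and 6.64 in knockdown tumours and 6.53, 6.81 and 6.87 in control tumours (-0.11, SE 0.16, and -0.21 to -0.042 with single arrays left out). The core proteins UQCRC1 and UQCRC2 and the Rieske iron-sulfur protein UQCRFS1, named after their values were seen, differed by 0.05 (SE 0.17), 0.21 (SE 0.21) and 0.21 (SE 0.19). Without control 1 those differences were 0.0027 for UQCRC1, -0.02 for UQCRC2 and 0.02 for UQCRFS1.

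Complex IV, cytochrome c oxidase, has several subunits with alternative isoforms. COX5B, a zinc-binding subunit on the matrix side, was 3.94, 4.20 and 4.27 in knockdown tumours and 4.44, 4.37 and 4.34 in control tumours. All knockdown values were below all control values (difference -0.25, SE 0.16, unadjusted p = 0.15), and all 6 were below background. The difference was -0.15 without knockdown 1 and -0.12 without both arrays numbered 1. COX7C, a small structural subunit chosen after its values were seen, had the largest difference of complex IV. It was 5.55, 5.65 and 5.92 in knockdown tumours and 4.83, 5.37 and 5.68 in control tumours (0.41, SE 0.22), with control 3 above knockdown tumours 1 and 2. Its difference was 0.18 without control 1, and its values in controls 1 and 2 lay below background.

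COX4I1 encodes the common isoform of subunit 4 and COX4I2 an isoform known from lung and from hypoxic cells. COX4I2 was 4.23, 4.47 and 4.46 in knockdown tumours and 4.16, 4.24 and 3.74 in control tumours (0.34, SE 0.18, unadjusted p = 0.089), with control 2 just above knockdown 1, and the difference was 0.19 without control 3. All of these values lay below background. COX4I1 was 8.84, 9.14 and 9.13 in knockdown tumours and 8.40, 9.10 and 9.23 in control tumours (0.13, SE 0.23, -0.13 without control 1), above background in all 6 arrays.

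In the other complex IV isoform families that were examined, the common isoforms were above background in more arrays than the tissue-specific ones, on the rows used. COX6A1, the common isoform of subunit 6A, was 9.81, 10.15 and 10.15 in knockdown tumours and 9.74, 10.23 and 10.02 in control tumours (difference 0.04, SE 0.18), while its muscle isoform COX6A2 lay between 3.38 and 3.71 in all 6 arrays. These COX6A1 values come from a row annotated with an Ensembl transcript. A second row of COX6A1, annotated with a RefSeq transcript, had a mean of 1.22. Which row reads COX6A1, and whether the brighter row reads other sequences, was not tested. COX6B1 differed by 0.06 (SE 0.17), COX7A2 by -0.07 (SE 0.16), the supercomplex factor COX7A2L by 0.11 (SE 0.15) and COX8A by 0.21 (SE 0.21, and 0.0673 without control 1). COX6A1 on its brighter row, COX6B1 and COX8A were above background in all 6 arrays and COX7A2 in 5. The testis isoforms COX6B2 and COX8C and the muscle isoform COX7A1 did not pass the filter and, like COX6A2 and COX7A2L, were above background in 0 arrays. All 9 skeletal muscle markers examined, among them CKM, DES and ACTA1, were above it in 0 arrays too. Any muscle of the host would be mouse muscle, so these human markers cannot gauge it.

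Complex V consists of the catalytic F1 head and a membrane part joined by stalks. ATP5J2, subunit f of the membrane part, was 7.79, 7.89 and 8.08 in knockdown tumours and 7.48, 7.64 and 7.71 in control tumours. All knockdown values were above all control values (difference 0.31, SE 0.16, unadjusted p = 0.082), and leaving out single arrays gave 0.23 to 0.38. ATP5I, subunit e and a partner of the same membrane part, was 7.51, 7.34 and 7.56 in knockdown tumours and 7.62, 7.66 and 7.68 in control tumours. Here the knockdown values were the lower ones (-0.18, SE 0.15, unadjusted p = 0.25), and leaving out single arrays gave -0.23 to -0.12. Both rows were above background in all 6 arrays, and their differences had opposite signs.

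The largest difference of all 65 genes was that of ATP5D, the delta subunit of the F1 central stalk, chosen after its values were seen. It was 6.56, 6.82 and 7.38 in knockdown tumours and 6.08, 6.73 and 6.49 in control tumours (0.49, SE 0.24). Knockdown 3 was the highest array and control 1 the lowest, control 2 lay above knockdown 1, and the difference was 0.26 without knockdown 3. Over the 4 F1 genes the median difference was 0.19 and over the 7 measured genes of the membrane part and stalks 0.07. Without control 1 these medians were 0.0323 and -0.0538. The catalytic beta subunit ATP5B differed by 0.22 (SE 0.18, and 0.11 without control 1) and its partner alpha, ATP5A1, by -0.04 (SE 0.15), both named after their values were seen.

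ATP5G1, ATP5G2 and ATP5G3 encode the same mature c subunit of the rotor ring from separate genes. ATP5G3 was 6.56, 6.66 and 6.59 in knockdown tumours and 6.37, 6.69 and 6.63 in control tumours (difference 0.04, SE 0.16), above background in all arrays. ATP5G1, at 3.24, 3.57 and 3.87 in knockdown tumours and 3.39, 3.37 and 3.92 in control tumours, did not pass the filter. Neither did ATP5G2, at 3.24, 3.06 and 3.43 in knockdown tumours and 3.17, 3.41 and 3.23 in control tumours, and the groups overlapped for all 3 genes.

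Of the 65 genes that passed the filter, 34 were above background in all 6 arrays, 19 in some and 12 in none. The 16 that did not pass were NDUFA12, NDUFA4L2, NDUFA5, NDUFB2, NDUFV2, UQCRB, COX6A2, COX6B2, COX6C, COX7A1, COX7B2, COX8C, ATP5G1, ATP5G2, ATP5L and ATP5L2. Their values lay between 1.18 and 3.93, and 0 of them were above background in any array. Among them NDUFV2 is a core subunit of complex I, and UQCRB and COX6C are constitutive parts of complexes III and IV; whether their probes respond on this array was not tested. Of the 4 members outside the complexes, ATP5SL differed by 0.25 (SE 0.24) and NDUFB2-AS1 by -0.13 (SE 0.30), both named after their values were seen. Without control 1 the values were -0.0166 and 0.13. ATP5S and NDUFC2-KCTD14 did not pass the filter.

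**Figure D4:**
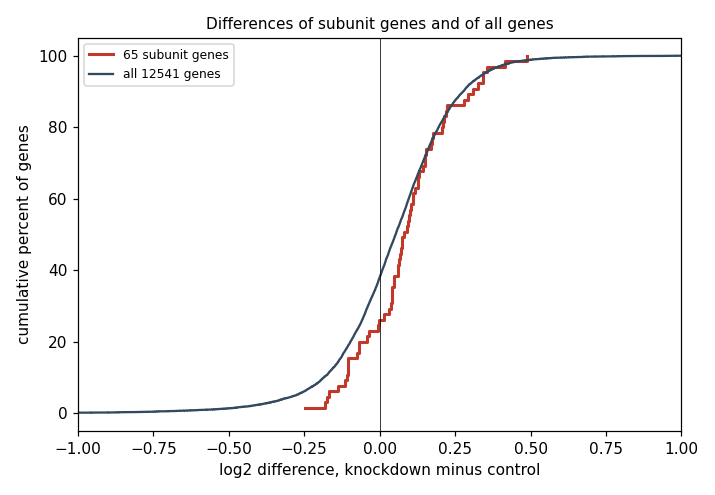
Cumulative percent of genes (vertical axis) by log2 difference, knockdown minus control (horizontal axis, shown from -1 to 1), for the 65 subunit genes and all 12541 genes. The median is 0.08 for the subunit genes and 0.05 for all genes, and all subunit differences lie from -0.25 to 0.49.

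Promoters of the subunit genes are a feature that the symbol rule did not use. RefSeq windows of 300 bases, 250 before and 50 after each gene start (GRCh38.p14), were found for 66 of the 81 subunit genes. The core of the nuclear respiratory factor NRF1 motif, GCGCANGCG, occurred on either strand in 21 of them (31.8%), against 11% of the promoters of 15842 protein-coding genes and 8.05% of all 27305 promoters. The ETS core CCGGAAG, read by GABP, occurred in 27.3% of subunit promoters, against 14.2% of protein-coding promoters and 10.7% of all. The YY1 motif AANATGGCG occurred in 24.2%, against 4.81% and 3.37%, and the CCAAT box (CCAAT) in 31.8%, against 36.4% and 35.7%. The estrogen-related receptor motif TCAAGGTCA was found in 1 subunit promoter, that of SDHD (1.52%, against 0.24% of protein-coding promoters and 0.359% of all). These are matches of letters, not measured binding, and matches to different motifs overlapped in 0 subunit promoters.

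The 3 promoters below belong to genes whose groups did not overlap and show where such matches lie. Each runs 5′ to 3′ on the gene's strand from 250 bases before the gene start to 10 after it, with matches in capitals. NDUFB4 (chr3:120596086-120596345, plus strand) holds 4 NRF1 matches that begin 159, 158, 63 and 8 bases before the start. Those at 159 and 158 overlap, and the one at 158 is in reverse orientation. COX5B (chr2:97645812-97646071, plus strand) holds 2 ETS matches, 37 and 5 bases before it. ATP5I, now ATP5ME (chr4:674267-674526, minus strand), holds 3 NRF1 matches, 219, 173 and 78 bases before the start, and an ETS match at base 4 after it. The NRF1 match at 173 and the ETS match are in reverse orientation.
NDUFB4: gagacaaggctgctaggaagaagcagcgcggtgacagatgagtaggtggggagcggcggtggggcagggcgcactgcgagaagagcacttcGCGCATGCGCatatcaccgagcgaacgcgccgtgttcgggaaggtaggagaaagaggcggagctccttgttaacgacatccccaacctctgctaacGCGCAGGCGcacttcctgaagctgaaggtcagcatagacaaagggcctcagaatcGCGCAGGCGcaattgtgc
COX5B: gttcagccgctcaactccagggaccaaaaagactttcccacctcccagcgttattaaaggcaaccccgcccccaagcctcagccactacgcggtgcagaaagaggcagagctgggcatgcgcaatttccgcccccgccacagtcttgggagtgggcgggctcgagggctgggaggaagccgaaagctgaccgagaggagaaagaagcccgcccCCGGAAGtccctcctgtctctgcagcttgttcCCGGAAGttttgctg
ATP5I: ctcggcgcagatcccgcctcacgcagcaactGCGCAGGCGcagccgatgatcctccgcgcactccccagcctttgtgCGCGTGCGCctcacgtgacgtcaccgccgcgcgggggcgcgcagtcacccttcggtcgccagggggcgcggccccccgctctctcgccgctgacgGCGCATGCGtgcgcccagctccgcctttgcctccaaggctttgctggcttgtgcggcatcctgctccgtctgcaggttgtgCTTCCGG
The window of NDUFB10 held no match to the NRF1, ETS, YY1 or estrogen-related receptor letters, and ATP5J2 had no entry. NDUFB4 and ATP5I, which both hold NRF1 matches, differed by 0.08 (SE 0.14) and -0.18 (SE 0.15). A link between matches and differences was not tested.

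Among the measured subunit genes, the median difference was 0.07 for the 18 with an NRF1 match and 0.07 for the 36 without. It was 0.04 for 17 genes with an ETS match and 0.09 for 37 without, and 0.12 for 15 genes with a YY1 match and 0.06 for 39 without. Without control 1 each of these 6 medians lay between -0.0348 and 0.0077. The factors themselves did not pass the test. NRF1 was 4.89 ± 0.08 in knockdown and 4.89 ± 0.28 in control tumours (SD, n = 3 each; difference 0.0063, SE 0.18), and the GABP subunit GABPA differed by -0.0088 (SE 0.18); both were named after their values were seen, and with single arrays left out they ran from -0.12 to 0.15 and from -0.11 to 0.11. NRF1 was above background in 1 array only, so its row had little signal, while GABPA and YY1 were above it in all 6. YY1 was 6.29, 6.18 and 6.06 in knockdown tumours and 6.54, 6.66 and 6.31 in control tumours. Its knockdown values all lay below its control values (difference -0.32, SE 0.16, unadjusted p = 0.078, adjusted p = 1.0 in limma).

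Across the regulators of respiratory gene transcription, 0 of 16 measured genes rose and 0 fell, with 8 positive and 8 negative differences and a median of -0.0013. ESRRA, an orphan nuclear receptor that acts with PGC-1 coactivators, was 4.37, 5.04 and 4.66 in knockdown tumours and 4.19, 4.39 and 4.36 in control tumours (0.38, SE 0.19), below background in all arrays. Its groups overlapped only through knockdown 1, which lay below control 2, and the difference was 0.20 without knockdown 2. The 27 measured assembly factors also gave 0 calls in either direction (19 positive, median 0.07, and -0.0556 without control 1). The oxidase assembly factor COX18 differed by 0.22 (SE 0.17, and 0.12 without knockdown 2) and the heme A synthase COX15 by -0.22 (SE 0.16, and -0.12 without control 1). COX18 was above background in 1 array and COX15 in all 6.

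Among 10 genes that the symbol rule leaves out (CYC1, cytochrome c, electron transfer flavoprotein genes, phosphate and adenine nucleotide carriers and the ATP synthase inhibitor ATPIF1), 0 rose and 0 fell (7 positive, median 0.08, and -0.0275 without control 1). CYC1, the cytochrome c1 subunit of complex III, differed by 0.17 (SE 0.18) and the adenine nucleotide carrier SLC25A4 by 0.19 (SE 0.20), and without control 1 by 0.0498 and 0.0639. CYC1 was above background in all 6 arrays and SLC25A4 in 0. The 20 measured enzymes of pyruvate oxidation and the citric acid cycle gave 0 calls (15 positive, median 0.07, and 0.0152 without control 1). DLD, the shared dihydrolipoamide dehydrogenase, was 7.46, 7.45 and 7.24 in knockdown tumours and 6.46, 7.26 and 7.30 in control tumours (0.37, SE 0.23), and citrate synthase CS differed by 0.23 (SE 0.19). DLD was low in control 1 alone, without which DLD differed by 0.10 and CS by 0.0817.

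The 17 genes of mitochondrial import, porins, chaperones and dynamics, used as a gauge of mitochondrial content, gave 0 calls, with 15 positive differences and a median of 0.10, which was 0.0022 without control 1. The import channel TIMM23 was 7.58, 7.97 and 7.72 in knockdown tumours and 6.87, 7.72 and 7.71 in control tumours (0.33, SE 0.24), and the import receptor TOMM70A differed by 0.22 (SE 0.20). Both had their lowest value in control 1, without which they differed by 0.0447 and 0.0193, and TIMM23 differed by 0.0883 when its rows were averaged. The median deviation of this list was -0.08, 0.16 and 0.09 in knockdown tumours 1 to 3 and -0.34, 0.0049 and 0.14 in control tumours 1 to 3. Mitochondrially encoded subunits were not analysed here.

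Most markers of other cell types were below background on these arrays. Of markers present in the table, 3 of 3 for endothelium, 4 of 4 for adipocytes, 2 of 2 for keratinocytes and 4 of 5 for leukocytes were above background in 0 arrays. The leukocyte exception was CD68, a lysosomal protein gene that tumour cells also express, at 7.71 ± 0.63 in knockdown and 7.30 ± 0.50 in control tumours (SD, n = 3 each; difference 0.42, SE 0.33, and 0.0895 without knockdown 3). Of 6 fibroblast markers, COL1A1 and PDGFRB were above background in all 6 arrays and the other 4 in none. Levels summed over the list on the linear scale ran from 343 to 464 in knockdown and from 370 to 432 in control tumours for fibroblast markers. For 7 stress genes they ran from 874 to 1186 in knockdown and from 761 to 1261 in control tumours. Of the 6 stress genes that passed the filter, 3 had positive and 3 negative differences. EGR1 differed by 0.41 (SE 0.18, unadjusted p = 0.049 in limma), with groups that overlapped. Host cells in these tumours would be mouse cells, whereas the genes read here are human. Low values therefore do not show how much host tissue was present. The part of other cells, of stress or of RNA quality in the subunit values was not tested.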

How the data were processed

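The authors hybridised RNA of 6 tumours to Affymetrix arrays and summarised them by GCRMA, as the submitters' processing notes name it. Version and array design: not given in the sources used here. Deposited values (0.05 to 13.3) carry no stated base and are read as log2. The deposited annotated table and the series value table were the same in each cell, so the second is no independent check. Groups follow the sample titles.

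Rows with 1 symbol were used (26419 of 53617 features), the row with the highest mean over 6 arrays stood for a gene, and genes with a log2 value above 4 in at least 3 arrays were kept (12541). Groups were compared with limma 3.58.1 in R 4.3.3 (lmFit, eBayes, no covariate, two-sided) with Benjamini-Hochberg adjustment over all genes kept, at 0.05. The fit had 4 residual and 5.83 prior degrees of freedom; standard errors had a median of 0.19. Levels were set against 3575 negative control features. The fitting code was tested on simulated data. Motifs were searched in RefSeq promoter windows by exact letters.

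The members and lists were chosen with earlier results of these data known. Named genes were PTPN11, per complex and direction up to 3 genes of smallest p without overlap (otherwise the 1 of smallest p), the SDH genes, isoform families and 2 genes of each other gene list; genes chosen outside this rule are marked as named after their values were seen, and marker genes serve as checks. Of symbols, 64 members are current in RefSeq and 17 are synonyms. Pairwise array correlations ran from 0.96 to 0.983. The labels do not say whether equal sample numbers pair the tumours, and the groups were compared as unpaired. Deviations from group means correlated by 0.42, -0.03 and 0.17 between arrays 1, 2 and 3 of the groups, which cannot settle it. Alternatives were other filters, other rows, quantile and median scaling, other variance models, the block and leaving out arrays. The series value table and a threshold of 0.1 were also counted among them, though they use the same values or the same fit.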

Additional observations from a re-analysis of the deposited data

How the results depend on the processing

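The count of subunit genes past the threshold was 0 in limma and under each of the 20 alternatives, with the lowest adjusted p at 0.626 (UQCRHL without control 3). The count of all genes past it was 1, and 0 with no filter, quantile normalization, median centring or no variance moderation, 2 without both arrays numbered 1, 5 with the sample number as a replicate block, and 0 to 1 with 1 array left out. The median over all 65 subunit genes was 0.08, 0.0343 with median centring and -0.02 to 0.14 with 1 array left out. With 1 array left out it ran from -0.0085 to 0.12 for complex I, from -0.02 to 0.30 for complex III and from -0.05 to 0.22 for complex V; each low end was without control 1. For complex II it ran from -0.0483 to 0.22 and for complex IV from -0.0859 to 0.16 with 1 array left out. PTPN11 kept its direction but missed the threshold with no filter (-2.05, adjusted p 0.079), quantile normalization (-2.09, 0.077), median centring (-2.10, 0.084) and no variance moderation (-2.05, 0.999); with 1 array left out it ran from -2.19 to -1.86. Directions of differences near 0 turned: with quantile normalization COX6A1 was -0.0049 and NDUFA4 0.0427, with median centring COX6A1 was -0.0059 and ATP5G3 -0.0049, and without both arrays numbered 1 SDHC was -0.0063, COX4I1 -0.0307 and ATP5G3 -0.0359. With 1 array left out the ranges were -0.21 to 0.0126 for SDHD, -0.14 to 0.29 for SDHC, -0.13 to 0.29 for COX4I1, -0.0859 to 0.16 for COX6A1, -0.0262 to 0.14 for COX6B1, -0.12 to 0.0241 for COX7A2, -0.13 to 0.14 for NDUFA4 and -0.0565 to 0.10 for ATP5G3. For these turns the cause was not tested. The sign of the difference was the same in all 6 fits with 1 array left out for 34 of 65 subunit genes (52.3%), against 47.3% of all genes. The block changed no call of a subunit gene. Genes below the negative control percentile have little signal over background.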
